A study of Mus musculus with 8 samples.

Results

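Rpl29 and 3 of its processed pseudogenes, Gm8210, Gm13841 and Gm14036, were followed through 7 RNA-seq libraries of sorted mouse bone marrow cells. The 4 genes were picked by name from the 52550 genes listed for each library, after Rpl29, Gm8210 and Gm13841 had appeared among the largest differences between genotypes in pre-pro-B cells. Gm14036 is a further copy of the same sequence. Their values in pre-pro-B cells are therefore given as a description, without a test, and tests are given only where pro-B cells or other genes were concerned.

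RPL29 is a protein of the large (60S) subunit of the cytosolic ribosome, which joins amino acids into protein in every cell. A processed pseudogene is a copy of a spliced mRNA that was reverse transcribed and inserted elsewhere in the genome, so it has no introns, and ribosomal protein genes are known for leaving many such copies. A sequenced fragment from a stretch where parent and copy have the same letters can be placed at either locus, and a value in a table then says where fragments were counted, not with certainty where they were transcribed.

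The libraries came from wild type (WT) C57BL/6J mice and from C57BL/6J mice lacking lactoferrin (Lf-/-, called KO in the plots), whose gene is Ltf. The study sorted pre-pro-B cells, an early B-lineage stage, and pro-B cells, the stage that follows, by flow cytometry on their surface markers. There were 2 WT and 2 Lf-/- pre-pro-B libraries, 1 WT pro-B library and 2 Lf-/- pro-B libraries, with no treatment. A second sample labelled WT pro-B was not analysed here. The study gives littermates of the same age as controls but not the age, and how the Lf-/- allele was made is not described in the sources used here. The text on methods has 3 mice in each group, and whether the libraries pooled them is not given, so the spread between libraries may be partly technical. Whether the libraries of both stages came from the same mice is not given either, so the stages may not be independent.

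Ltf stood at 2143 and 2731 FPKM (sequenced fragments scaled to transcript length and to the mapped total of the library) in WT pre-pro-B and 2650 FPKM in WT pro-B, and between 88.2 and 168 FPKM in the 4 Lf-/- libraries, so the genotype labels held. The Lf-/- pre-pro-B library 2 stood apart, with 12172 genes above 0 against 19477 to 20250 in the others. The 7 neutrophil markers S100a8, S100a9, Elane, Mpo, Camp, Ngp and Lcn2 summed to between 282370 and 424620 FPKM in the WT libraries and between 163627 and 305634 FPKM in the Lf-/- libraries, and 3 of the 7 were lower in every Lf-/- than in every WT library. The 12 B-lineage markers summed to between 396 and 806 FPKM in WT and between 1688 and 3150 FPKM in Lf-/-, with 5 of 12 higher in every Lf-/- library and Rag1 listed at 0 in the WT pro-B library. All 7 libraries thus held far more neutrophil than B-lineage signal, against their labels. Over all 10793 genes tested, 9.87% had every Lf-/- value above every WT value and 1.13% had every Lf-/- value below. The 3 erythroid markers, between 9852 and 71918 FPKM in sum, and the 3 T and NK markers, between 325 and 1289 FPKM with Trbc2 listed at 0 in the Lf-/- pre-pro-B library 2, overlapped between the genotypes. The part of this mixture in the results below was not tested, and fewer cells of a type cannot be told apart from less RNA per cell.

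The 3 pseudogenes are close copies of the Rpl29 coding sequence. Rpl29 lies on the plus strand of chromosome 9 (GRCm38, 106429454 to 106431568), and its 483 coding bases are spread over 3 exons, in segments of 37, 65 and 378 bases before the 3 bases of the stop codon. Gm8210 is a single exon on the plus strand of chromosome 1 (43189156 to 43189638), Gm13841 a single exon on the minus strand of chromosome 5 (115801677 to 115802159) and Gm14036 a single exon on the plus strand of chromosome 2 (134803949 to 134804428). The stretches below come from the GENCODE M21 transcripts, 5′ to 3′ on each gene's own strand, with positions counted from 1 at the A of the Rpl29 start codon. They are shown because a handful of letters is all that tells these loci apart, and capitals mark the 4 positions at which any of them differ.
Rpl29, positions 51 to 310: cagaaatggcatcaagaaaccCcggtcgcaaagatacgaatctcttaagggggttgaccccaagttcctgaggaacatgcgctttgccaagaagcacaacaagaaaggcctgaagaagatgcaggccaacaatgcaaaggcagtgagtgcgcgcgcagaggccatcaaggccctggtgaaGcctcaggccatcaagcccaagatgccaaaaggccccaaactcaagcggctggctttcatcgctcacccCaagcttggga
Gm8210 and Gm13841, positions 51 to 310: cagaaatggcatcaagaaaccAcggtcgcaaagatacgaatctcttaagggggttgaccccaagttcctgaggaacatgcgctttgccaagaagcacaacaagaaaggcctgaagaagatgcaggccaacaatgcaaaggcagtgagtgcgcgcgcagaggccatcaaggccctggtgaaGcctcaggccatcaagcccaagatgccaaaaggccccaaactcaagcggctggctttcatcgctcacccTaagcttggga
Gm14036, positions 51 to 310: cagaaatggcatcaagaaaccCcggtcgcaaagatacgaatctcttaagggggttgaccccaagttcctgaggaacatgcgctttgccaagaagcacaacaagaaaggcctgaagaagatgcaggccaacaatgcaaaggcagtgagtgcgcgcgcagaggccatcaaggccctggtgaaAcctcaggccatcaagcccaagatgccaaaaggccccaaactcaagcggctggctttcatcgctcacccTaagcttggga
Rpl29, positions 401 to 483: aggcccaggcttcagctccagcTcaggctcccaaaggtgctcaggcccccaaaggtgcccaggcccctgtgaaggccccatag
Gm8210, Gm13841 and Gm14036, positions 401 to 483: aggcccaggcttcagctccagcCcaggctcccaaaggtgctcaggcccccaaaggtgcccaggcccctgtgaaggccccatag

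With the Rpl29 base first, Gm8210 and Gm13841 carried C72A, C300T and T423C, which makes 99.4% identity over 483 bases. Gm8210 and Gm13841 matched each other at all 483 bases. Gm14036 begins at position 4, so it lacks the start codon, and carried G231A, C300T and T423C over 480 bases. All of these differences fall on the third base of a codon and leave the encoded amino acid as it is. Between them the sequences of Rpl29 and Gm8210 ran without a difference for 71, 227, 122 and 60 bases. The Rpl29 transcript has 227 further bases outside its coding part (710 in all), which the annotated pseudogenes do not have.

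In pre-pro-B cells, Rpl29 was lower and all 3 pseudogenes were higher in the Lf-/- libraries, with no overlap between genotypes. The FPKM of Rpl29 was 74.7 and 135 in the WT libraries of this stage, against 8.72 and 17.3 in their Lf-/- counterparts. Both Lf-/- libraries were thus below both WT libraries, by 8.06-fold between the means of 105 ± 42.7 and 13.01 ± 6.07 FPKM (SD, n = 2 each). On the log2(FPKM + 1) scale used for all differences here, which understates the change of low genes, Rpl29 was 2.93 lower (difference -2.93). This contrast chose the genes, so nothing is read from the share of all genes that had no overlap in it, which was 17.7% of 9720 in the direction of Rpl29 and 15.5% in that of the pseudogenes.

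The FPKM of Gm8210 was 4.96 and 4.10 with lactoferrin (WT) and 69.5 and 155 without it. The means, 4.53 ± 0.614 and 112 ± 60.4 FPKM, were 24.8-fold apart (log2 difference 4.25). For Gm13841 the WT pair had 7.52 and 6.92 FPKM, and the Lf-/- pair 97.1 and 171 FPKM. Its means were 18.6-fold apart (log2 difference 3.98), and the Lf-/- library 2 was the higher of its pair for both genes. For Gm14036, the copy that starts after the start codon, the WT pair had 4.11 and 3.32 FPKM, and the Lf-/- pair 23.3 and 35.8 FPKM. Its 7.95-fold difference (log2 difference 2.67) was the smallest of the 3 pseudogenes. Without the Lf-/- pre-pro-B library 2, which stood apart, the log2 differences were -3.38 for Rpl29, 3.68 for Gm8210, 3.58 for Gm13841 and 2.37 for Gm14036.

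**Figure D1:**
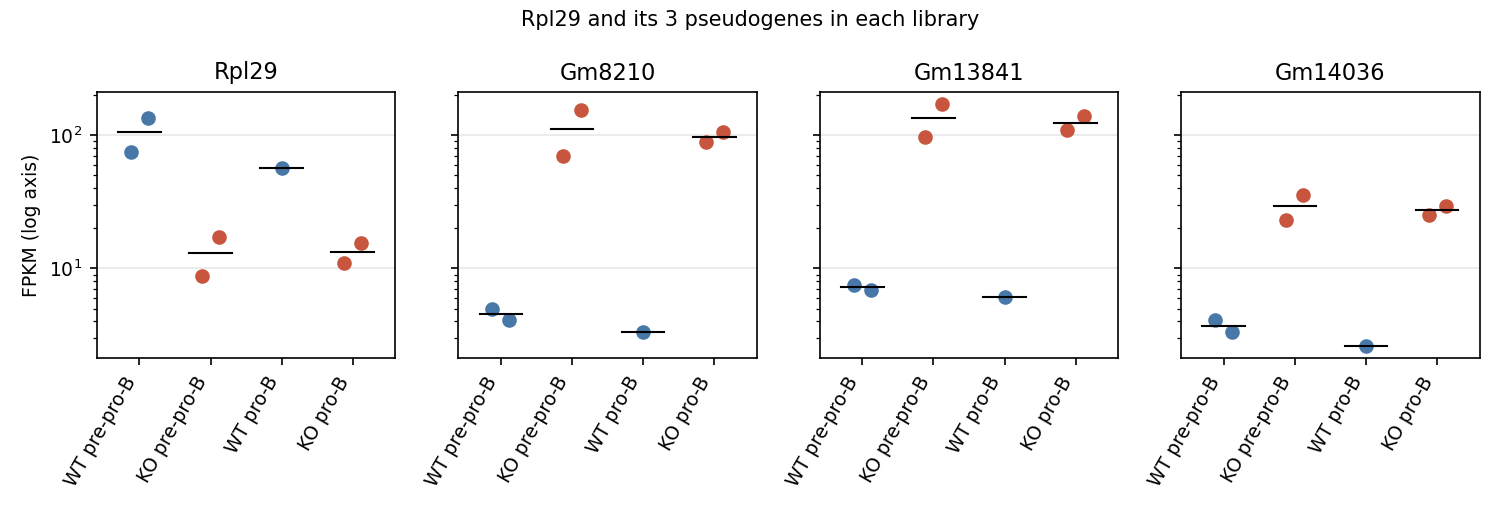
FPKM of Rpl29, Gm8210, Gm13841 and Gm14036 (log axis) in the WT (blue) and Lf-/- (KO, red) libraries of both stages, each point a library and each line a group mean. Rpl29 lies between 56.8 and 135 FPKM in WT and between 8.72 and 17.3 FPKM in Lf-/-, and each pseudogene lies the other way round.

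The pro-B libraries, which were not used to choose the genes but may come from the same mice, gave the same directions. The single WT library had 56.8 FPKM of Rpl29, against 10.97 and 15.6 without lactoferrin, a 4.28-fold lower mean. Gm8210 went from 3.35 FPKM with lactoferrin to 88.4 and 106 without it, a 29.0-fold higher mean. The values of Gm13841 were 6.09 FPKM (WT), 110 and 138 (Lf-/-), a 20.4-fold higher mean. Those of Gm14036 were 2.60 FPKM (WT), 25.1 and 29.6 (Lf-/-), a 10.5-fold higher mean. With 1 WT library, 75.3% of the 10793 genes tested had both Lf-/- pro-B values above the WT value and 6.90% had both below it, so the lack of overlap in this stage says little for the pseudogenes.

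The log2 differences in pro-B cells were -2.04 (standard error 0.596) for Rpl29, 4.49 (0.565) for Gm8210, 4.13 (0.498) for Gm13841 and 2.97 (0.479) for Gm14036. They come from a limma fit of all 7 libraries in which the lone WT pro-B library is assumed to vary like the other groups, so the spread behind the errors and p-values comes in part from the pre-pro-B libraries that chose the genes. The 95% intervals ran from -3.44 to -0.629 for Rpl29, from 3.15 to 5.83 for Gm8210, from 2.95 to 5.31 for Gm13841 and from 1.84 to 4.10 for Gm14036. No member passed an adjusted p of 0.05 in limma, with Benjamini-Hochberg adjusted p = 0.822 for Rpl29, 0.379 for Gm8210 and Gm13841 and 0.720 for Gm14036. None of the 10793 genes tested passed, a background of 0%. At an unadjusted p under 0.05 limma called 467 genes (4.33%), 4.18% higher and 0.148% lower in Lf-/-, and all 4 members were among them. The number of genes called this way was 2318 and 2300 without the Lf-/- pre-pro-B library 1 or 2, 260 and 261 without the WT pre-pro-B library 1 or 2, 137 and 279 without the Lf-/- pro-B library 1 or 2, and 1914 with the pro-B libraries alone. The median log2 difference of all genes in this stage was 0.48 as deposited and 0.01 after median-ratio scaling, and 96.6% of the calls at an unadjusted p under 0.05 were higher in Lf-/- as deposited against 69.1% after that scaling. With that scaling the members' differences were -2.66, 3.93, 3.54 and 2.44 in the same order, and with quantile normalization -2.57, 4.01, 3.65 and 2.43.

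Taking the 7 libraries together, 9.87% of 10793 genes had every Lf-/- value above every WT value and 1.13% had every Lf-/- value below every WT value. Rpl29 belonged to the second kind and the 3 pseudogenes to the first, but the pre-pro-B values that chose the genes are among these, so nothing is read from those shares. Among the 4 groups, the mean of Rpl29 fell in the order WT pre-pro-B (105 FPKM), WT pro-B (56.8), Lf-/- pro-B (13.3) and Lf-/- pre-pro-B (13.01), and the values of both Lf-/- groups overlapped. Each pseudogene had its highest mean in Lf-/- pre-pro-B, followed by Lf-/- pro-B, whose values overlapped with it, then WT pre-pro-B and WT pro-B. The stages thus stood next to each other within a genotype for all 4 genes.

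In approximate fragments, read from the even steps of low FPKM values in the 6 libraries that showed such steps, the WT libraries had 561 to 1142 fragments at Rpl29 and 22.5 to 26.4 at Gm8210. The Lf-/- libraries had 67.5 to 168 at Rpl29 and 366 to 778 at Gm8210. No step could be read in the Lf-/- pre-pro-B library 2, so its depth is unknown. No member rested on fewer than 17.4 fragments in any of the 6 libraries.

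The summed signal of Rpl29, Gm8210 and Gm13841 was higher in the Lf-/- libraries. At the earlier stage the WT pair had 87.2 and 146 FPKM, the Lf-/- pair 175 and 343 FPKM, a 2.22-fold higher mean (117 ± 41.7 against 259 ± 119 FPKM, n = 2 each). At the pro-B stage 66.2 FPKM with lactoferrin stood against 209 and 260 without it, a 3.54-fold higher mean. All 4 Lf-/- sums were above all 3 WT sums. FPKM divides by transcript length, and the pseudogenes are annotated as shorter than Rpl29, so the sum was also formed from FPKM times length, divided by the length of Rpl29. So formed, the earlier stage had 83.2 and 143 with lactoferrin against 122 and 239 without it, where the genotypes overlapped and the means differed 1.60-fold. In pro-B cells the length-weighted sum was 63.2 in WT and 146 and 182 in Lf-/-, 2.59-fold higher. Without the Lf-/- pre-pro-B library 2 the log2 ratio of the unweighted sum in pre-pro-B cells was 0.59 in place of 1.15. With Gm14036 added, the pre-pro-B sums were 91.3 and 149 FPKM (WT) against 199 and 379 FPKM (Lf-/-), and the pro-B sums 68.8 FPKM (WT) against 234 and 290 FPKM (Lf-/-).

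**Figure D2:**
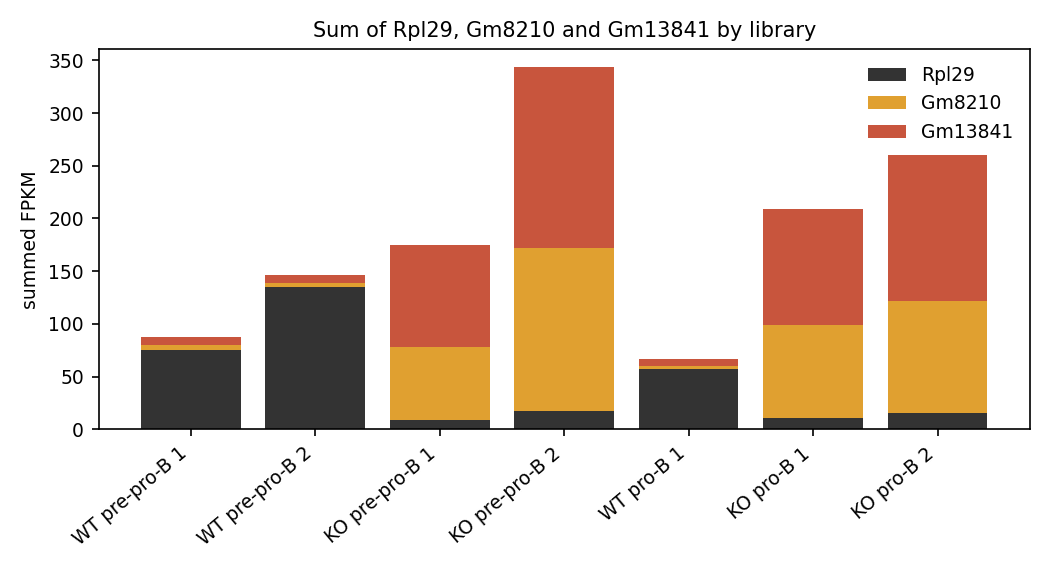
Summed FPKM of Rpl29 (black), Gm8210 (orange) and Gm13841 (red) in each library, stacked from 0, with Lf-/- libraries labelled KO. The black part is most of the bar in the 3 WT libraries and a thin base in the 4 Lf-/- libraries, whose bars reach from 175 to 343 FPKM.

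Within this sum, Gm8210 and Gm13841 held 14.3% and 7.54% of the pre-pro-B signal and 14.2% of the pro-B signal with lactoferrin. Without it they held 95.02% and 94.96% at the earlier stage, and 94.7% and 94.01% at the later. The share was thus 84.1 percentage points higher in Lf-/- pre-pro-B and 80.1 points higher in Lf-/- pro-B cells. It was nearly level among the 4 Lf-/- libraries, while their sums ranged from 175 to 343 FPKM. Gm13841 stood at 0.0512 to 0.107 times Rpl29 in the WT libraries and at 8.89 to 11.1 times Rpl29 in the Lf-/- libraries.

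Gm8210 and Gm13841 did not have equal values, although their 483 bases are the same. The ratio of Gm8210 to Gm13841 was 0.660, 0.592 and 0.550 in the WT libraries and 0.716, 0.905, 0.806 and 0.766 in the Lf-/- libraries. Across the 7 libraries their log2 values had a Pearson r of 0.999, and each had r between -0.914 and -0.904 with Rpl29. These 7 points fall into a WT and an Lf-/- cluster, so the coefficients mainly restate the gap between the genotypes. How the authors' counting divided fragments among copies with the same letters is not given in the sources used here, so the value at each single copy is uncertain.

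Rpl29 has more close copies than these 3. A blastn search of its coding sequence against all GENCODE M21 transcripts found 28 loci, the 3 members included, with at least 95% identity over at least 80% of the locus. Of the 25 other loci, 24 were listed and 6 reached 1 FPKM in at least 2 libraries, namely Gm6344, Gm15454, Gm10709, Gm5561, Gm43471 and Gm17669, all annotated as processed pseudogenes. The 18 below that level reached at most 0.973 FPKM in any library. C300T and T423C, which all 3 member pseudogenes carry, were both present in 18 of the 25 other loci, whereas C72A was present in none of them. Among the 28 loci, C72A thus marked only Gm8210 and Gm13841, the copies with the highest values in Lf-/- cells.

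Of the 6 loci, 5 carry both C300T and T423C, all but Gm17669, and these 5 differed in direction between the genotypes. Gm6344 on chromosome 13 (99.4% identity) had WT values of 1.27, 2.21 and 1.47 FPKM and Lf-/- values of 8.44, 11.9, 9.51 and 12.3 FPKM, the earlier stage given first. With the genotype difference averaged over both stages, a fit added after the data were seen, it was 2.12 higher on the log2 scale (standard error 0.314, limma adjusted p = 0.0478), and 20 of 10793 genes (0.185%) passed in that fit. Gm15454 on chromosome 1 (99.2%) had WT values of 4.62, 2.71 and 4.31 FPKM and Lf-/- values of 6.50, 15.9, 11.4 and 11.3 FPKM, without overlap (adjusted p = 0.390 in the same limma fit). Gm10709 on chromosome 9 (99.2%) went the other way, with WT values of 9.44, 7.90 and 7.71 FPKM and Lf-/- values of 3.49, 3.98, 2.66 and 4.67 FPKM (adjusted p = 0.443 in limma). Gm5561 and Gm17669 were also below the WT range in every Lf-/- library, the former at 2.16 to 3.83 FPKM in WT and 1.16 to 1.97 FPKM in Lf-/-, and the latter at 1.68 to 1.76 FPKM in WT and 0 to 0.713 FPKM in Lf-/-. Gm43471 overlapped between the genotypes. Gm17669 reached 1 FPKM only in WT libraries, so its direction was set by that limit and is no support. In each stage on its own none of the 6 passed an adjusted p of 0.05. At an unadjusted p under 0.05 limma called Gm6344 in both stages and Gm17669 in pro-B cells.

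**Figure D3:**
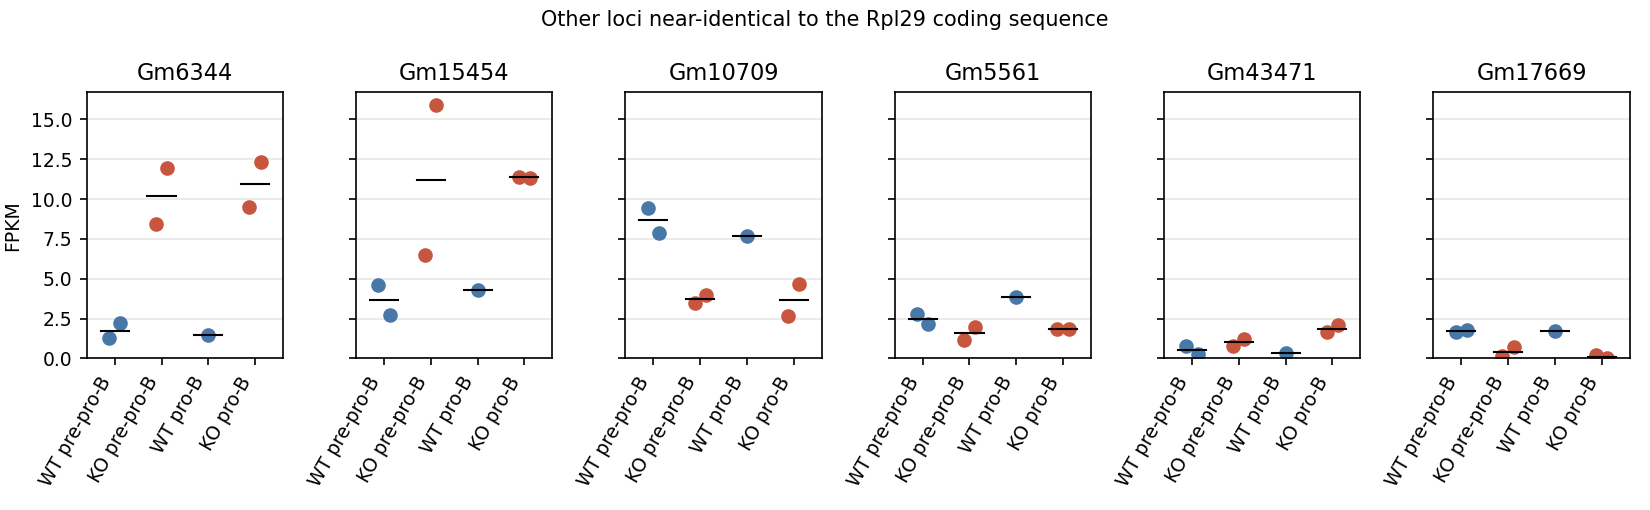
FPKM (linear axis from 0) of the 6 other loci near-identical to the Rpl29 coding sequence that reached 1 FPKM in at least 2 libraries, in WT (blue) and Lf-/- (KO, red) libraries, each point a library and each line a group mean. Gm6344 and Gm15454 are higher and Gm10709, Gm5561 and Gm17669 lower in every Lf-/- library. Of all 10793 genes tested, 9.87% were higher and 1.13% lower in this way.

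The genes of the other proteins of the cytosolic ribosome had smaller differences between the genotypes than Rpl29. Rpl29 was chosen for its difference in pre-pro-B cells, so its place beside them at that stage is a description. Of the 78 other cytosolic ribosomal protein genes tested, 0 passed in limma at an adjusted p of 0.05 in either stage, and 0 had an unadjusted p under 0.05, against 2.92% of all genes at the earlier stage and 4.33% at the later. Without the Lf-/- pre-pro-B library 1, 8 of the 78 had an unadjusted p under 0.05 at the earlier stage and 3 passed the adjusted threshold, while over all genes the calls at an unadjusted p under 0.05 went from 284 of 9720 to 4416 of 9143. In pre-pro-B cells 24 had positive and 54 negative differences, from -0.68 to 0.29, with a median of -0.12 beside 0.03 for all 9720 genes. In pro-B cells 53 had positive and 25 negative differences, from -0.69 to 0.70, with a median of 0.15 beside 0.48 for all 10793 genes, and this median turned to -0.48 after median-ratio scaling and -0.22 with quantile normalization. The highest differences in pre-pro-B cells were those of Rps9 (0.29), Rpl9 (0.23) and Rps28 (0.23), and the lowest those of Rps15 (-0.68) and Rpl35 (-0.63). The WT pair had 509 and 747 FPKM of Rps15, against 495 and 299 FPKM in the Lf-/- pair, where the Lf-/- pre-pro-B library 2 was the lowest of the 4.

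By level, Rpl29 held ranks 57, 41 and 63 of 79 ribosomal protein genes in the WT libraries, and ranks 79, 78, 78 and 78 without lactoferrin. Put in its place, the sum with Gm8210 and Gm13841 held ranks 53, 41 and 58 in the WT libraries and 33, 13, 27 and 28 without lactoferrin. The median of the 78 other genes lay between 129 and 166 FPKM in all 7 libraries. Rpl29 alone was thus at or next to the bottom of the ribosomal protein genes in Lf-/- cells, and the sum was within their range.

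**Figure D4:**
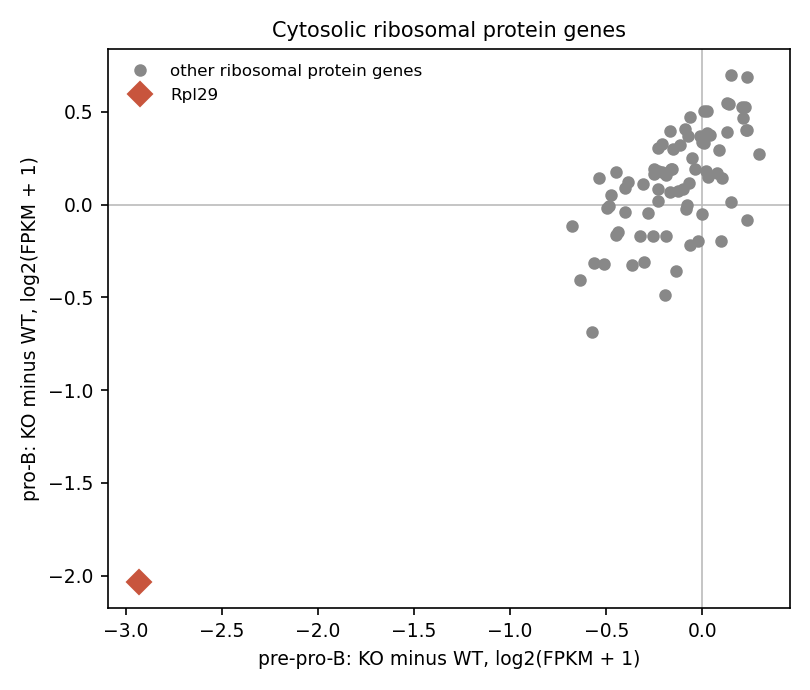
Difference KO (Lf-/-) minus WT in log2(FPKM + 1) in pre-pro-B (horizontal) and pro-B cells (vertical), each grey point 1 of 78 other ribosomal protein genes and the red diamond Rpl29. The grey points lie within -0.69 and 0.70 on both axes and Rpl29 at -2.93 and -2.04. Rpl29 was chosen for its pre-pro-B difference, so its place on the horizontal axis is a description.

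A pseudogene share was also formed for other ribosomal protein genes, where the family summed to at least 10 FPKM in every library. It counted every annotated pseudogene with at least 98% identity, whereas the share of Rpl29 counted only Gm8210 and Gm13841. Other close copies of Rpl29 were left out, and Gm10709 alone was at 9.44, 7.90 and 7.71 FPKM in the WT libraries, above both. A share of Rpl29 with every such copy was not formed, so the shares are not alike in make-up. Among these 65 families with 214 pseudogenes, the share changed between the genotypes by a median size of 1.38 percentage points at the pre-pro-B stage and 1.43 points at the pro-B stage, and by under 5 points in 61 families in each stage. The 84.1 points of Rpl29 in pre-pro-B cells follow from the choice of its members, so their place beside the other families is a description, as is that of the 80.1 points in pro-B cells. In pre-pro-B cells the largest change was that of Rps2, by -19.9 points, but its WT shares were 65.0% and 20.05% and its Lf-/- shares 24.6% and 20.6%, so that the WT libraries differed by more than the genotypes. That of Rps19 was -6.18 points, with 52.9% in 1 WT and 40.06% to 42.1% in the other 3 pre-pro-B libraries. In pro-B cells the share of Rps2 changed by -39.9 points, against 1 WT library.

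Rpl29 lies on the same chromosome as the gene that the Lf-/- mice lack, 4.59 Mb from Ltf (chromosome 9, 111019271 to 111042767). The shares of protein-coding genes within 15 Mb of Ltf were therefore formed too, a choice made after the values were seen. Of 168 such genes, 6 had a family that met the same limits, Tma7, Higd1a, Rpsa, Impdh2, Rpl14 and Rhoa. The share of Tma7-ps in the sum with Tma7 was 10.8%, 10.9% and 9.78% with lactoferrin and 40.1%, 36.9%, 35.1% and 40.1% without it, the earlier stage given first, or 27.7 points higher at the pre-pro-B and 27.8 at the pro-B stage. Tma7, which lies between Rpl29 and Ltf (start at 109074568) and is named for a role in translation, was at 148 to 166 FPKM in WT and 93.9 to 165 FPKM in Lf-/- cells. Tma7-ps, on chromosome 1, was at 16.1 to 20.2 FPKM in WT and 54.8 to 110 FPKM in Lf-/- cells, without overlap. The shares of the other 5 families changed by at most 1.47 points (pre-pro-B) and 3.24 points (pro-B). At an unadjusted p under 0.05 limma called 3.77% of 159 tested genes near Ltf in pre-pro-B cells, against 2.92% of all genes. In pro-B cells it called 2.33% of 172 genes near Ltf, against 4.33% of all. In the fit averaged over both stages the shares were 6.40% and 7.17%. The part of the distance to Ltf in these values was not tested.

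**Figure D5:**
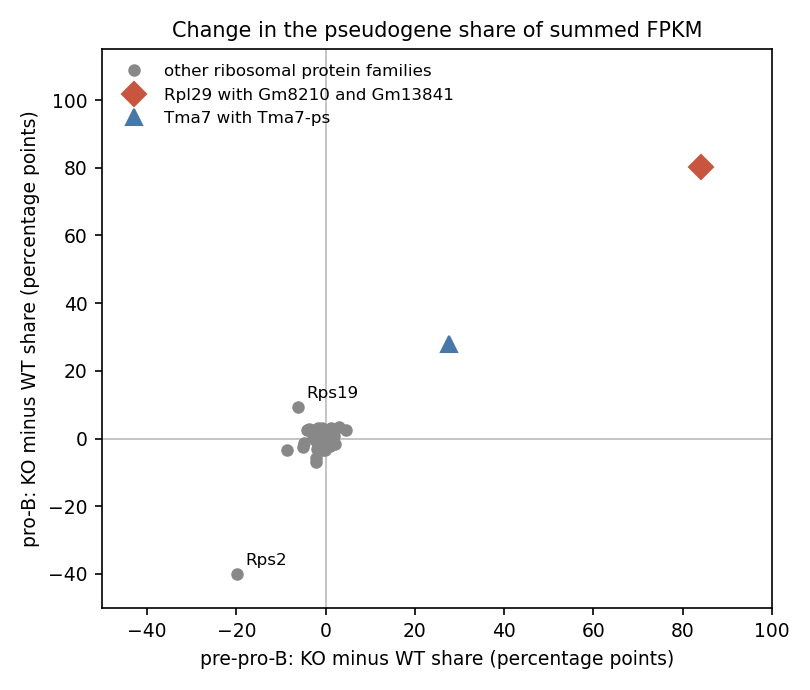
Change in the pseudogene share of a family's summed FPKM, KO (Lf-/-) minus WT in percentage points, in pre-pro-B (horizontal) and pro-B cells (vertical). Grey points are the 65 other ribosomal protein families, which cluster around 0 apart from Rps2, the blue triangle is Tma7 at 27.7 and 27.8, and the red diamond is Rpl29 at 84.1 and 80.1. The diamond counts only Gm8210 and Gm13841, whereas the other points count every pseudogene that met the limits. With every close copy of Rpl29 counted, its change would be smaller.

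Of 10789 genes compared over the 7 libraries, those whose log2 values were most like Rpl29 were Plac8 (Pearson r = 0.968), Ltf (0.949), Gm10709 (0.923), Gm17669 (0.921) and Ly6c2 (0.918). The list thus held the knocked-out gene and a pair of near-identical Rpl29 loci. Of that pair, Gm17669 reached 1 FPKM only in WT libraries, so its likeness to Rpl29 is no support. Plac8 stood at 676 to 760 FPKM in WT and 308 to 483 FPKM in Lf-/-. Those most like the mean of Gm8210 and Gm13841 were Cd180 (0.992), Hmgn1 (0.990), Gm45051 (0.989), Fcmr (0.988) and Gm6344 (0.987). Cd180 and Fcmr encode surface receptors of B cells. Fcmr stood at 8.30 to 16.2 FPKM in WT and 77.7 to 190 FPKM in Lf-/-. Like the sum of the B-lineage markers, it was thus higher in every Lf-/- library. Within the Lf-/- libraries it did not follow that sum: Fcmr was lowest in pre-pro-B library 1, where the sum was highest (3150 FPKM). All of these coefficients rest on the same 3 WT and 4 Lf-/- libraries and are dominated by the gap between them.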

How the data were processed

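RNA of sorted bone marrow cells was sequenced on an Illumina instrument, and the authors deposited a table of FPKM values for each of 7 libraries, taken to be as normalized by the authors to transcript length and mapped fragments. The submitters' processing notes name TopHat, Cufflinks, HTSeq, DESeq and GRCm38, without versions or roles. The gene annotation and the handling of multiply placed fragments are not given in the sources used here. Of 52550 gene identifiers, 52403 matched GENCODE M21 (GRCm38), which supplied positions, lengths and sequences. The members and lists were chosen with earlier results of these data known.

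Differences were computed on log2(FPKM + 1) with limma 3.58.1 in R 4.3.3 (mean-variance trend, two-sided, Benjamini-Hochberg over all genes tested). A gene entered a fit where 2 or more of its libraries reached 1 FPKM. Pre-pro-B cells were fitted with their 4 libraries and pro-B cells with all 7 and 4 group means. The fits were tested on simulated data. With 2 libraries against 2, an exact permutation test of a single value cannot go below 0.333. Near-identical loci were found with blastn 2.17.0. For families, a pseudogene had to match its parent with at least 98% identity over at least 90% of its length. The genes named are the members, Ltf, the near-identical loci, the 5 genes most correlated with each side, the 3 ribosomal protein genes at each end in pre-pro-B cells and the 3 families whose share changed most there. An item that this rule names is not reported here. Tma7 and its neighbours were named after their values were seen. Fragment numbers were read from the steps of FPKM times length in genes with 1 transcript, which gave 10900000 to 15200000 mapped fragments in 6 libraries and no value in the Lf-/- pre-pro-B library 2; between 20.5% and 35.5% of low values lay within 3% of a step in the 6 and 12.2% in that library, so these numbers are approximate. Alternatives were another pseudocount, other filters, median-ratio scaling, quantile normalization, a replicate block, other library sets and leaving out each library but the WT pro-B library.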

Additional observations from a re-analysis of the deposited data

How the results depend on the processing

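Rpl29 kept a negative and the 3 pseudogenes kept positive log2 differences in both stages under every alternative run. Several of these runs could not change a difference. The filters only set which genes are tested, and in pre-pro-B cells the fit of all 7 libraries and the replicate block left the differences as they were. In pro-B cells the pro-B libraries alone did the same. The pre-pro-B contrast also chose the genes, so its signs are a description. With each library left out, the differences in pre-pro-B cells ranged from -3.38 to -2.47 for Rpl29, from 3.68 to 4.82 for Gm8210, from 3.58 to 4.39 for Gm13841 and from 2.37 to 2.97 for Gm14036. In pro-B cells they ranged from -2.27 to -1.80, from 4.36 to 4.62, from 3.96 to 4.30 and from 2.85 to 3.09. The single WT pro-B library, on which each of these differences rests, was not left out in any run. Leaving out a pre-pro-B library cannot move the pro-B differences, so these ranges come from the Lf-/- pro-B libraries only. In pro-B cells Gm13841 passed with no filter on low values (difference 4.13, limma adjusted p = 0.0445). Its adjusted p ranged up to 0.711 over the alternatives that changed a setting, and from 0.0586 to 0.984 with a library left out.

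The count of genes at an adjusted p under 0.05 in limma was less stable. In pre-pro-B cells it was 0, but 65 with the replicate block, and with each library left out it ranged from 0 to 3338: 3338 without the Lf-/- library 1, 0 without the Lf-/- library 2, 16 without the WT library 1 and 24 without the WT library 2, where the lone library of a group is assumed to vary like the other group. In pro-B cells it was 0, but 256 with no filter, and with each library left out it ranged from 0 to 1, the 1 without the Lf-/- pre-pro-B library 1. Same-numbered libraries did not deviate together (r = 0.0388 between WT and Lf-/- pre-pro-B and -0.0127 between both Lf-/- stages, over genes), so the numbers were not taken as pairs. With so few libraries in a group, this check cannot show whether both stages came from the same mice. The fit of all 7 libraries treats them as independent. In pro-B cells the block left the count at an adjusted p under 0.05 as it was. It moved the difference of Rpl29 from -2.04 to -2.41. The cause of these changes was not tested.

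The median difference of the other ribosomal protein genes in pre-pro-B cells was -0.12, -0.29 after median-ratio scaling, -0.17 with quantile normalization and between -0.163 and -0.0946 with a library left out. In pro-B cells it turned from 0.15 to -0.48 and -0.22 under these scalings and lay between -0.028 and 0.290 with a library left out, -0.028 without the Lf-/- pro-B library 2. The log2 ratio of the summed signal in pro-B cells went from 1.82 to 1.18 after median-ratio scaling and lay between 1.66 and 1.97 with a library left out. In pre-pro-B cells it lay between 0.59 (without the Lf-/- library 2) and 1.57 (without the WT library 2). The change of the pseudogene share lay between 80.7 and 87.5 points in pre-pro-B cells over the alternatives, none adding near-identical loci beyond Gm14036. In pro-B cells it lay between 79.8 and 80.5 points with an Lf-/- pro-B library left out, and was 77.5 points with Gm14036 added and 81.8 points with the length-weighted share. With other identity limits, 1 ribosomal protein family again changed by 10 points or more. Depth limits the fragments at the low side of each gene, and it could not be read in the Lf-/- pre-pro-B library 2.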
